A study of Mus musculus with 6 samples.

Results

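Expression of 10 genes of mitochondrial fatty acid oxidation and intracellular fatty acid binding was followed in mouse spermatogonial stem cells, the self-renewing germ cells of the testis, grown in culture with or without bisphenol A. The 10 genes were chosen by name from the 34745 genes of the expression table: the receptor Ppara, the binding proteins Fabp3 and Fabp5, the carnitine palmitoyltransferases Cpt1a and Cpt2, the acyl-CoA dehydrogenases Acadm, Acadl and Acadvl, and the trifunctional protein subunits Hadha and Hadhb. All 10 had enough counts to be tested. Under bisphenol A the binding protein gene Fabp3 rose, and Acadvl and Hadhb, which act at the first and at the later steps of long-chain oxidation, fell. The other 7 genes did not pass the test.

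RNA sequencing covered 6 samples, 3 titled untreated and 3 given bisphenol A (BPA, spelled Bisphnel A in the labels), a building block of polycarbonate plastics that can act on oestrogen receptors, at 100 µM for about 4 days. All 6 carry the strain label DBA/2J X c57BL/6J, postnatal day 6 as the age, and passages 15 to 20, with no other genotype or allele named. The comparison asked how messenger RNA levels differed between the BPA and the untreated cultures. The titles of the controls name no vehicle, so a solvent effect and a BPA effect cannot be told apart. Whether replicates came from separate cultures or animals is not stated in the labels, and the p-values therefore reflect only the spread between these samples, which may be technical.

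Mitochondria break down fatty acids in a repeating spiral. Fatty acid binding proteins carry the insoluble fatty acids through the cytosol, CPT1 at the outer membrane couples the activated acyl group to carnitine, and CPT2 at the inner membrane returns it to coenzyme A. Chain-length specific acyl-CoA dehydrogenases then oxidise the acyl-CoA, and hydration, a second oxidation and thiolytic cleavage follow, which for long chains are done by the trifunctional protein, a complex of the HADHA and HADHB subunits. PPARA is a nuclear receptor that binds DNA together with a retinoid X receptor and is known in liver and heart as an activator of many of these genes.

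The libraries held 13453280 to 22286517 gene counts. Of 13287 genes tested with edgeR's quasi-likelihood test, 580 were higher and 835 lower under BPA at a Benjamini-Hochberg adjusted p under 0.05, and over all of them the median log2 fold change was 0.10. With library size as the only scaling there were 831 higher and 786 lower genes, and the median was 0.21. BPA replicate 2 correlated less with BPA replicates 1 and 3 (Pearson's r over genes 0.954 and 0.956 on log2 CPM) than these did with each other (0.978). With untreated replicates 1 to 3 its r was 0.954, 0.943 and 0.946, so it was as close to untreated replicate 1 as to BPA replicate 1. For BPA replicates 1 and 3 the r with untreated libraries was 0.926 to 0.942. The libraries expressed all 12 germ cell markers on the list used, whose summed level was 2508 to 2536 CPM (counts scaled to library size) in untreated and 2022 to 2531 CPM in BPA cultures. Of these markers Nanos3 (log2 fold change -2.65, edgeR adjusted p = 8.5e-06), Id4 (-1.0, 0.0401) and Dnd1 (-0.57, 0.0309) were lower and Sall4 (0.82, 0.0379) was higher under BPA. Of 9 Sertoli cell markers Fshr and Rhox5 were at 0 in every library, and 5 in all, these included, stayed under 1 CPM. The summed level of the list was 14.1 to 17.2 CPM in untreated and 29.7 to 49.8 CPM in BPA cultures. Most of it was Sox9, at a mean of 8.64 and 24.5 CPM, which was higher (log2 fold change 1.50, edgeR adjusted p = 0.0104). Gata4 (1.88, 0.138), Wt1 (0.91, 0.278) and Dhh (-0.82, 0.785) did not pass. Leydig cell markers summed to at most 1.30 CPM, with 4 of 6 at 0. In bulk RNA, fewer cells of a type and less RNA per cell cannot be told apart.

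By edgeR 1 of the 10 genes was higher and 2 were lower under BPA. Over all tested genes 4.37% were higher and 6.28% lower, 10.6% in either direction. For 5 of the 10 genes the untreated and BPA values lay apart without overlap, against 31.3% of all tested genes. The median log2 fold change of the 10 was 0.20, with 7 above 0 and 3 below. The summed level of the 10 genes was 775, 849 and 872 CPM in untreated replicates 1 to 3 and 808, 739 and 747 CPM in BPA replicates 1 to 3. These sums overlapped between the groups. All CPM values carry edgeR's normalisation factors. A log2 fold change is that of BPA relative to untreated cultures, and SE is its standard error.

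The number of calls among the 10 was again 1 higher and 2 lower with DESeq2 (6.92% of all genes higher and 8.65% lower), limma-voom (3.81% and 6.93%), scaling by library size (6.25% and 5.92%), a replicate block (5.43% and 7.41%) and without BPA replicate 2 (8.81% and 11.7%). With libraries adjusted for GC content and gene length it was 1 higher and 3 lower, where 6.8% and 9.29% of all genes were called. Leaving out any library other than BPA replicate 2 lost calls, among the 10 and among all genes. All 6 libraries gave 580 higher and 835 lower genes, and these fits tested 13583 to 14166 genes. Without untreated replicate 3, 0 higher and 0 lower of the 10 were left (all genes 346 and 487). Without untreated replicate 2, 1 higher and 1 lower were left (200 and 327). It was 0 higher and 1 lower without untreated replicate 1 (162 and 282), BPA replicate 1 (230 and 353) or BPA replicate 3 (292 and 418).

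**Figure D1:**
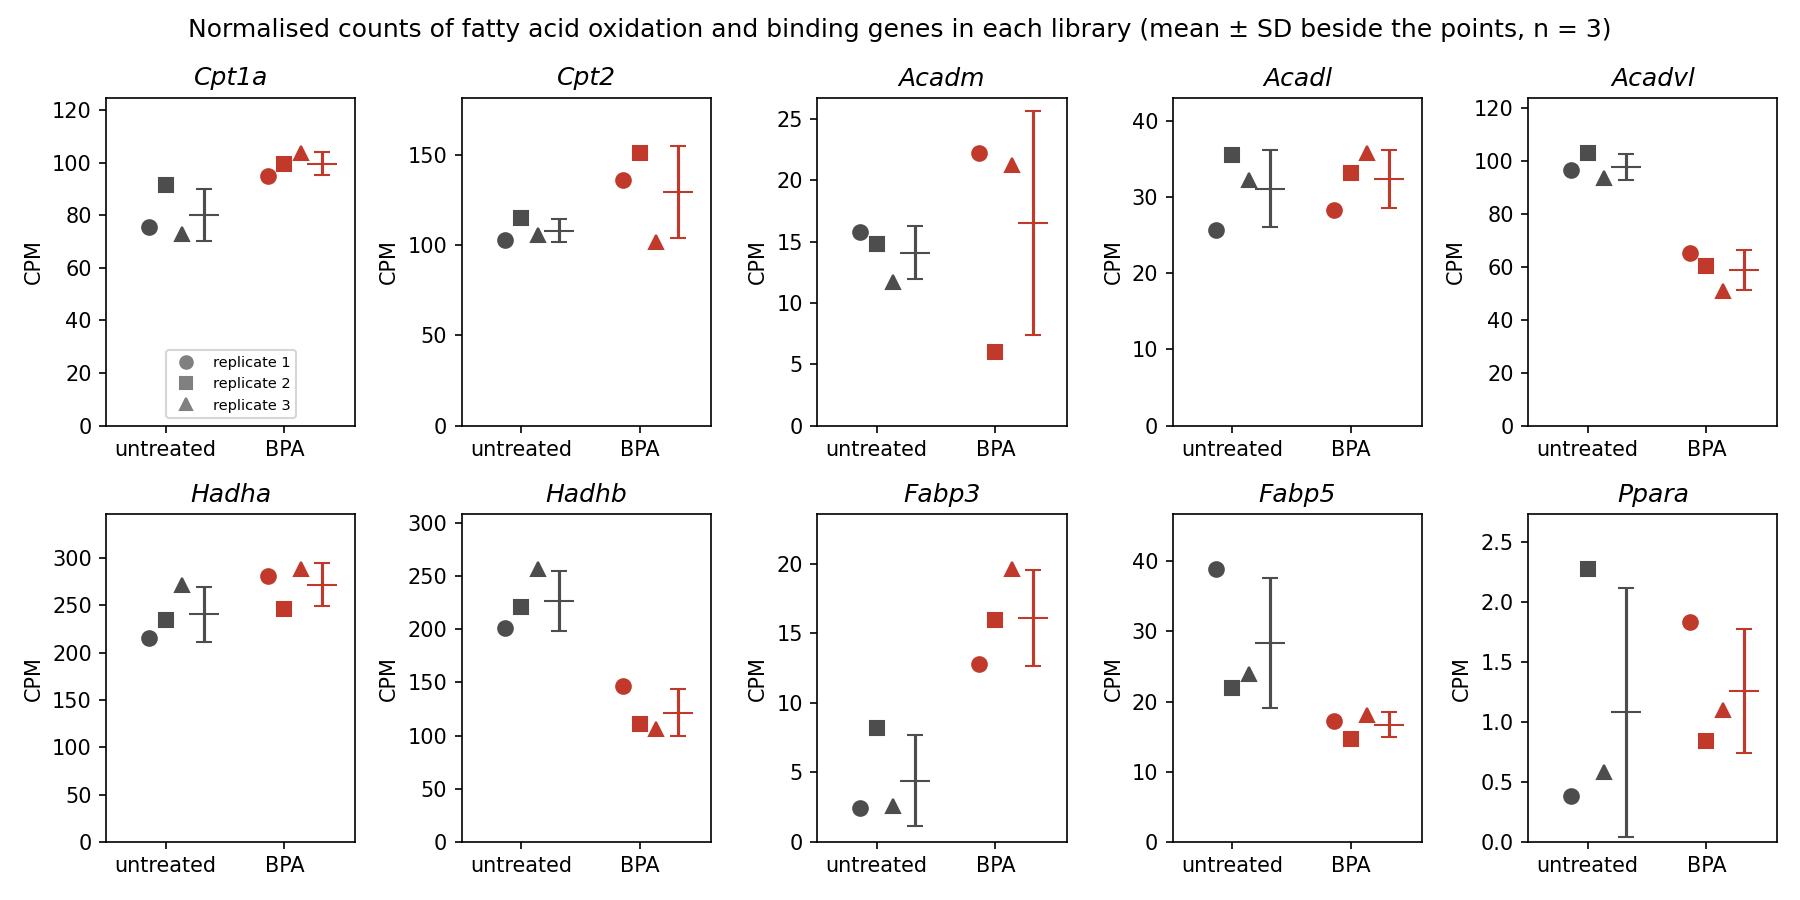
Normalised counts (CPM, vertical axes starting at 0) of the 10 genes in each library, with circles, squares and triangles for replicates 1, 2 and 3 and the mean ± SD (n = 3) beside the points. The untreated and BPA points are separated for Cpt1a, Acadvl, Hadhb, Fabp3 and Fabp5, and BPA replicate 2 lies far below the other BPA libraries for Acadm.

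Ppara (ENSMUSG00000022383, chr15:85734983-85802819 in mm10) was the least abundant of the 10. Untreated replicates 1 to 3 held 7, 29 and 8 counts of it, and BPA replicates 1 to 3 held 28, 17 and 27, which is 0.382, 2.28 and 0.581 CPM against 1.83, 0.843 and 1.10 CPM. The highest of all 6 values was untreated replicate 2, and the groups overlapped. The log2 fold change was 0.22 (SE 1.20, edgeR adjusted p = 0.936). The means were 1.08 ± 1.04 CPM in untreated and 1.26 ± 0.514 CPM in BPA cultures (SD, n = 3 each), so that at these counts the spread within a group was as large as the level itself in untreated cultures.

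Fabp3, which encodes the heart-type fatty acid binding protein (ENSMUSG00000028773, chr4:130308595-130315463), had the largest fold change of the 10. It measured 2.47, 8.16 and 2.61 CPM in untreated replicates 1 to 3 and 12.8, 16.0 and 19.7 CPM in BPA replicates 1 to 3. Every BPA library was above every untreated library, and untreated replicate 2 stood above the other untreated libraries. Its mean went from 4.41 ± 3.25 to 16.1 ± 3.45 CPM (SD, n = 3 each). The log2 fold change was 1.88 (SE 0.51, edgeR adjusted p = 0.0342). The gene passed under 9 of 9 other settings of the fit. It did not pass without untreated replicate 1, untreated replicate 3, BPA replicate 1 or BPA replicate 3, where the log2 fold change was 1.59 to 2.03 and the edgeR adjusted p 0.0717 to 0.145. Without untreated replicate 2 it was 2.67.

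Part of the Fabp3 exons lies on those of its neighbours. Zcchc17, on the opposite strand, shares 81 exon bases at the 3' end of Fabp3, and Gm10570 shares 80 at the 5' end, together 19.6% of the Fabp3 exon bases. The library kit does not mark strand, so reads in these stretches cannot be assigned to one gene or the other. Zcchc17 measured 84.2, 68.8 and 71.1 CPM in untreated and 58.0, 53.4 and 50.4 CPM in BPA replicates 1 to 3, below the untreated range in each BPA library, with a log2 fold change of -0.47 (SE 0.19, edgeR adjusted p = 0.143). Gm10570 had 5 counts in BPA replicate 2 and 0 in the other libraries. Fabp3-ps1, a copy with 99.3% identity over 402 of the 823 bases of the Fabp3 transcript, had 2 counts in all 6 libraries together.

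The 30 bases shown next hold the only match among the 9 promoters examined to the core of the composite site bound by ATF4, a transcription factor of the integrated stress response. They lie at chr4:130308676-130308705 on the plus strand of GRCm38.p6 (mm10) and come from the RefSeq promoter table. The capitals mark the match to TGATGNAA, read on the opposite strand.
Fabp3: gtgtgggccacTTTCATCAtgtgatgcgag
The match begins at position -51 from the RefSeq start site and falls inside the first exon of the longer GENCODE vM21 model of Fabp3. Of all 32851 promoter windows of the same length in the table, 3.97% held this core on either strand. The match describes the letters of this window only.

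Fabp5, the epidermal-type binding protein (ENSMUSG00000027533, chr3:10012548-10016607), measured 38.9, 22 and 24.0 CPM in untreated and 17.3, 14.7 and 18.1 CPM in BPA replicates 1 to 3. All BPA libraries were below all untreated libraries, and untreated replicate 1 was well above the rest. The log2 fold change was -0.76 (SE 0.30), which did not pass (edgeR adjusted p = 0.137). With libraries adjusted for GC content and gene length it was -0.92 and passed (edgeR adjusted p = 0.0396). Without untreated replicate 1 it was -0.46 (edgeR adjusted p = 0.486). There are 5 annotated copies that match Fabp5 at 93.6% to 98.3% identity over 336 to 409 of its 987 transcript bases. Fabp5l2, one of them, had 7 counts in all, and the other 4 were not analysed here, so the Fabp5 value is uncertain to the extent that reads fall on them.

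The proportion of the 2 binding protein genes was compared within each library. Fabp5 had 15.8, 2.69 and 9.17 times the CPM of Fabp3 in untreated replicates 1 to 3 and 1.35, 0.919 and 0.919 times in BPA replicates 1 to 3. CPM does not correct for gene length. Per gene length (deposited FPKM) the ratio was 3.07, 0.524 and 1.79 in untreated replicates 1 to 3. In BPA replicates 1 to 3 the FPKM ratio was 0.264, 0.179 and 0.179. By FPKM Fabp3 was thus above Fabp5 in every BPA library and in untreated replicate 2. The lowest untreated ratio was that of replicate 2 and still lay above every BPA ratio. The mean log2 ratio differed by -2.80. An exact two-sided permutation test gave p = 0.1, the smallest that 3 against 3 samples allow, and 0.167 after adjustment over the 5 ratios computed. Leaving out each library in turn gave -3.52 to -2.25.

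Of the carnitine palmitoyltransferases, Cpt1a encodes the liver-type enzyme that controls entry into the mitochondrion (ENSMUSG00000024900, chr19:3323301-3385732). It measured 75.6, 91.5 and 73.0 CPM in untreated and 95.1, 99.6 and 103.8 CPM in BPA replicates 1 to 3. The groups did not overlap, but untreated replicate 2 came close to the lowest BPA library, and the log2 fold change of 0.31 (SE 0.18) did not pass (edgeR adjusted p = 0.292).

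Cpt2, the inner-membrane enzyme (ENSMUSG00000028607, chr4:107903981-107923610), measured 103, 115 and 106 CPM in untreated and 136, 151 and 102 CPM in BPA replicates 1 to 3. BPA replicate 3 was the lowest of all 6 values and the other 2 BPA libraries were the highest, so the groups overlapped. The log2 fold change was 0.26 (SE 0.18, edgeR adjusted p = 0.408). The Cpt1a to Cpt2 ratio of CPM was 0.733, 0.794 and 0.691 in untreated and 0.698, 0.658 and 1.02 in BPA replicates 1 to 3. BPA replicate 3 lay above the untreated range and BPA replicate 2 below it (exact two-sided permutation p = 0.9, and 0.9 adjusted over the 5 ratios).

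Of the 3 acyl-CoA dehydrogenase genes, Acadvl passed the test. Acadvl, which encodes the very-long-chain enzyme at the inner membrane (ENSMUSG00000018574, chr11:70010183-70015411), measured 96.5, 103.0 and 93.5 CPM in untreated and 65.3, 60.2 and 50.7 CPM in BPA replicates 1 to 3. The groups were well apart, and the highest BPA library stayed well below the lowest untreated one. Acadvl fell by 0.73 on the log2 scale (SE 0.18, edgeR adjusted p = 0.0245), from 97.7 ± 4.82 to 58.7 ± 7.39 CPM (SD, n = 3 each). It passed under 9 of 9 other settings of the fit. With 1 library left out it passed only without BPA replicate 2. When any untreated library, BPA replicate 1 or BPA replicate 3 was left out, the log2 fold change was -0.81 to -0.63 and the edgeR adjusted p 0.0625 to 0.117.

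Acadvl lies tail to tail with Dvl2, a Wnt signalling gene on the opposite strand, and 1151 bases or 42.9% of its merged exons are also exons of Dvl2. Without strand, reads in that stretch cannot be told apart. Dvl2 measured 297, 345 and 294 CPM in untreated and 291, 478 and 311 CPM in BPA replicates 1 to 3. Its groups overlapped, with BPA replicate 2 the highest of all, and its log2 fold change was 0.21 (SE 0.19, edgeR adjusted p = 0.541). How the counting divided the shared stretch was not tested.

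**Figure D2:**
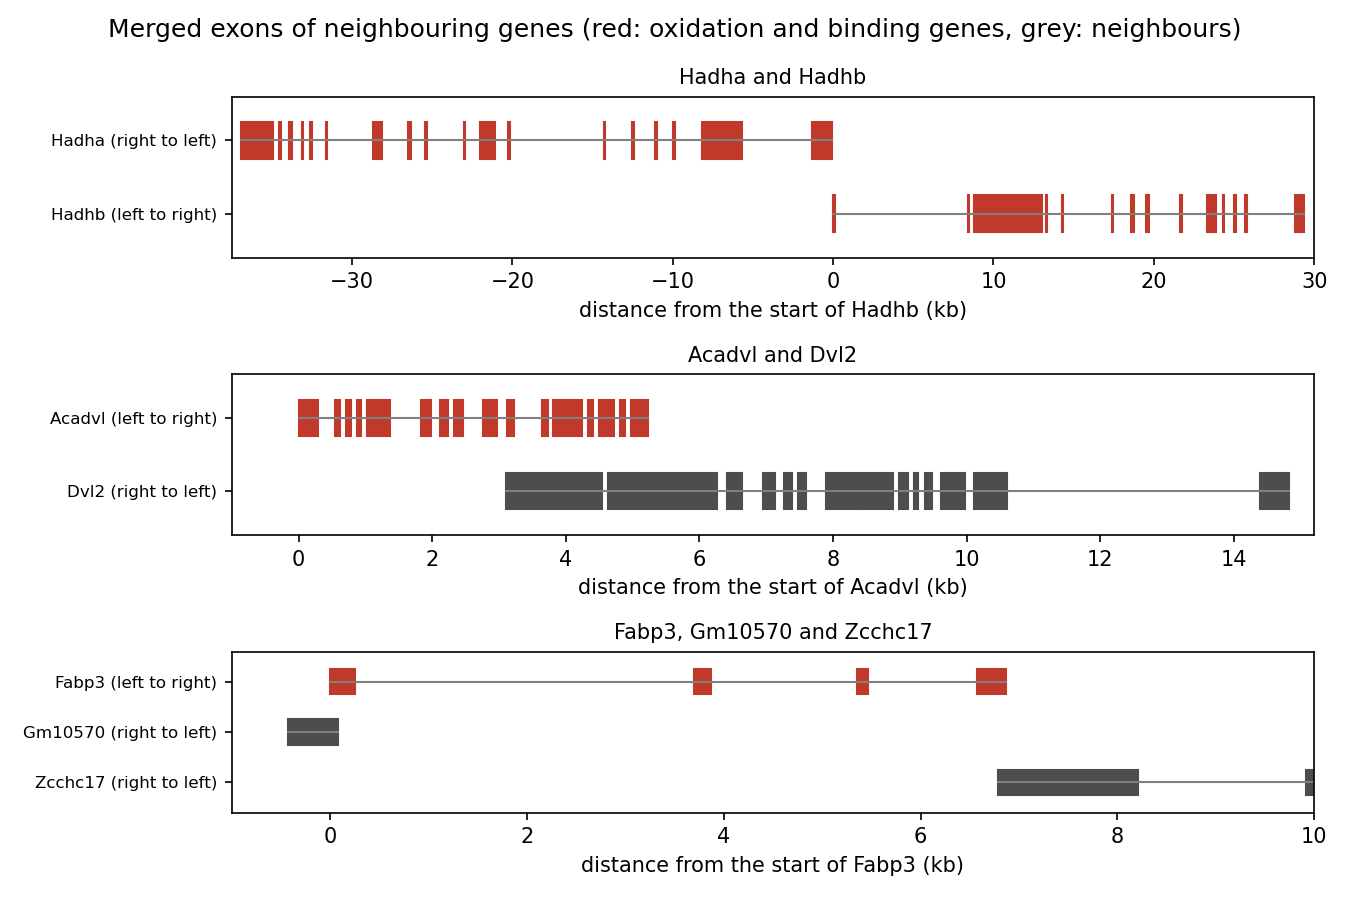
Merged exons (boxes) of 3 neighbourhoods along the genome, with the distance from the start of 1 gene in kb on each horizontal axis and the direction of transcription beside each name. Hadha and Hadhb run away from each other without shared exons, the 3' exons of Acadvl lie on those of Dvl2, and Fabp3 touches Gm10570 and Zcchc17 at its ends.

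Acadl, the long-chain enzyme (ENSMUSG00000026003, chr1:66830839-66863277), measured 25.6, 35.5 and 32.2 CPM in untreated and 28.3, 33.1 and 35.8 CPM in BPA replicates 1 to 3. The ranges lay almost on top of each other, and the log2 fold change was 0.06 (SE 0.25, edgeR adjusted p = 0.912). The Acadl to Acadvl ratio of CPM was 0.265, 0.345 and 0.345 in untreated and 0.433, 0.550 and 0.706 in BPA replicates 1 to 3, without overlap. Per gene length (FPKM) it was 0.6317, 0.8206 and 0.8205 in untreated and 1.03, 1.31 and 1.68 in BPA replicates 1 to 3. The mean log2 ratio differed by 0.81, which is mainly the fall of Acadvl given above. The exact two-sided permutation p was 0.1, the smallest possible with these samples, and 0.167 adjusted over the 5 ratios.

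Acadm encodes the medium-chain enzyme (ENSMUSG00000062908, chr3:153922357-153944632). It measured 15.8, 14.8 and 11.7 CPM in untreated and 22.3, 6.00 and 21.3 CPM in BPA replicates 1 to 3. BPA replicates 1 and 3 were above every untreated library and BPA replicate 2 below every one. The log2 fold change was 0.23 (SE 0.44, edgeR adjusted p = 0.805), and 0.63 without BPA replicate 2 (edgeR adjusted p = 0.172). Acadm was the only one of the 10 genes for which BPA replicate 2 was under 0.5 times both other BPA libraries, which held for 11.9% of all tested genes. The Acadm to Acadvl ratio of CPM overlapped between the groups through that library, at 0.0996 against 0.341 and 0.420 in the other BPA libraries (exact two-sided permutation p = 0.4, adjusted 0.5). Gm5131, a copy that matches 681 of 2047 transcript bases of Acadm at 93.5% identity, was not analysed here.

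Of the 2 subunit genes of the trifunctional protein, Hadhb passed the test and Hadha did not. Hadhb, the beta subunit with the thiolase activity (ENSMUSG00000059447, chr5:30155248-30184593, plus strand), measured 201, 221 and 257 CPM in untreated and 147, 111 and 106 CPM in BPA replicates 1 to 3. Every BPA library was below every untreated library. Hadhb fell by 0.90 on the log2 scale (SE 0.18, edgeR adjusted p = 0.00809), from 226 ± 28.3 to 122 ± 22.3 CPM (SD, n = 3 each). It passed under 9 of 9 other settings and with 5 of the 6 libraries left out in turn. Without untreated replicate 3 the log2 fold change was -0.75 (edgeR adjusted p = 0.0577).

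Hadha, the alpha subunit with the hydratase and dehydrogenase activities (ENSMUSG00000025745, chr5:30118304-30155162, minus strand), measured 215, 235 and 272 CPM in untreated and 282, 246 and 289 CPM in BPA replicates 1 to 3. The groups overlapped, and the log2 fold change was 0.18 (SE 0.15, edgeR adjusted p = 0.508). Garem2, on the opposite strand, shares 75 bases or 0.9% of the Hadha exons, and its own log2 fold change was -0.34 (SE 0.24, edgeR adjusted p = 0.414).

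Within each library the Hadha to Hadhb ratio of CPM was 1.07, 1.06 and 1.06 in untreated and 1.91, 2.21 and 2.72 in BPA replicates 1 to 3. The 3 untreated ratios were almost identical, although both genes varied between those libraries, and all BPA ratios were higher. The mean log2 ratio was 1.09 higher under BPA, which is 2.12-fold (SD of the log2 ratio 0.01 in untreated and 0.25 in BPA cultures). The exact two-sided permutation test gave p = 0.1, the smallest possible with these samples, and 0.167 adjusted over the 5 ratios. Leaving out each library in turn gave log2 differences of 0.95 to 1.20. Of Hadhb 2 annotated copies, Gm13910 with 99.8% identity over 1428 of 2048 transcript bases and Gm9108 with 97.6% over 1426 bases, were not analysed here. The Hadhb counts are uncertain where reads matched these copies as well, since how such reads were counted is not given in the sources used here.

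**Figure D3:**
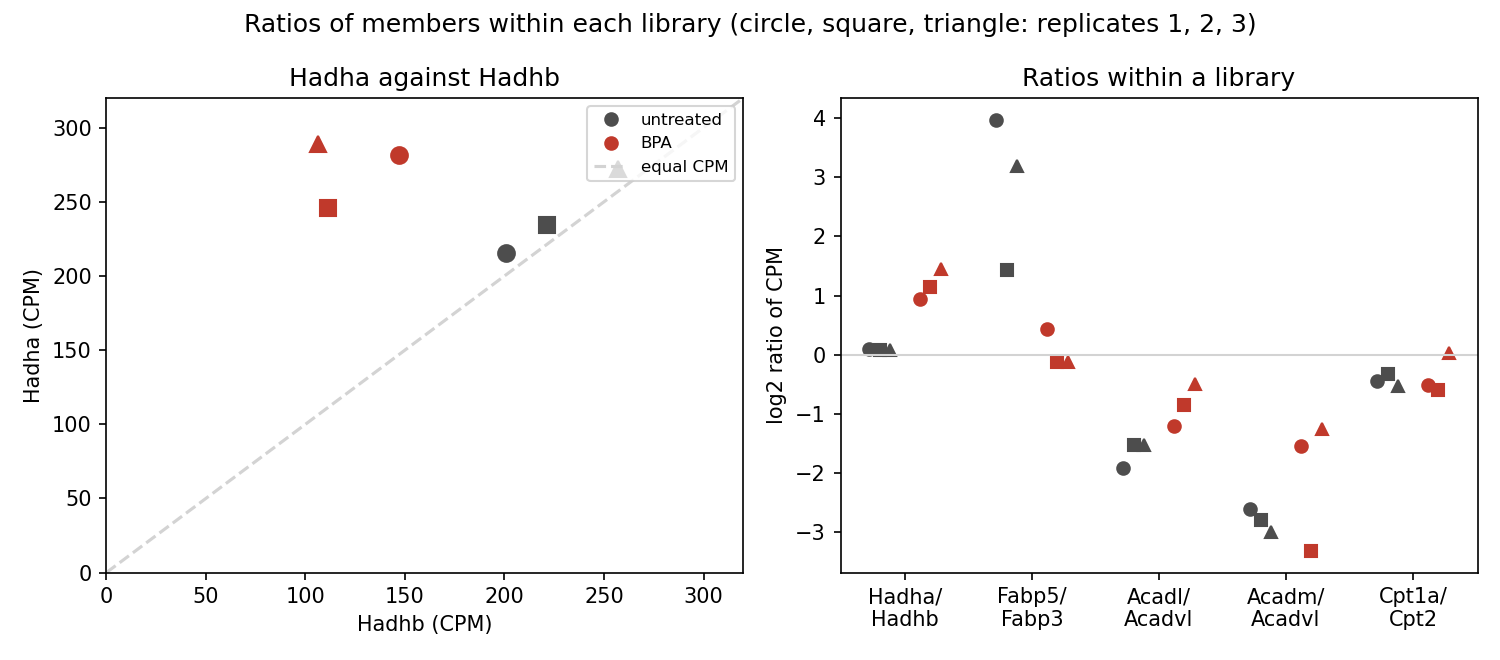
Left, Hadha against Hadhb in CPM with 1 point per library and a dashed line of equal CPM. Right, log2 ratios of CPM for 5 pairs of genes in untreated (grey) and BPA (red) libraries: the untreated Hadha to Hadhb points lie close together at a ratio of 1.06 to 1.07, and the BPA points lie at 1.91 to 2.72.

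Hadha and Hadhb are transcribed away from each other from adjacent starts. In GENCODE vM21 their first bases are 86 apart, in RefSeq 273, and the RefSeq promoter windows of both genes (250 bases before to 50 after the start) share 228 bases. The 85 bases that lie between the GENCODE genes are shown because both genes of the pair start beside them. They are chr5:30155163-30155247 of GRCm38.p6 (mm10), plus strand, from the RefSeq promoter table, and the capitals mark GC boxes (GGGCGG), the binding motif of Sp-family factors.
Hadhb: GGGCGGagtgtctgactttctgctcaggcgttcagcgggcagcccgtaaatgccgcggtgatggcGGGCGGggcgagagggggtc
Both boxes in the stretch read on the Hadhb strand, at positions -90 and -25 from the RefSeq start of Hadhb, and the G and C content is 69.4%.

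Promoter windows were matched by symbol for 9 of the 10 genes. GC boxes on either strand were found in 6 of the 9 (Acadl, Cpt1a, Cpt2, Hadha, Hadhb and Ppara) and in 35.7% of all windows. The only Hadha box is the same site as the Hadhb box at -90, as their windows share 228 bases, so this site was counted for both genes. The direct repeat bound by PPAR and retinoid X receptors, AGGTCANAGGTCA, was found in 0 of the 9 and in 0.0396% of all windows, and its relaxed form AGGNCANAGGNCA in 0 of 9 and 0.381%. Ppara itself held 1 site for the nuclear respiratory factor NRF1 (GCGCANGCGC, 4.6% of all windows), and Cpt1a 1 CCAAT box (CCAAT, 37.4%). The cyclic AMP response element TGACGTCA (1.79% of all windows), the E-box CACGTG (7.15%) and the antioxidant response core TGACNNNGC (12.4%) were in none of the 9. These counts describe only the letters of the 300-base windows, read on both strands.

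Between genes, levels were compared per gene length with the deposited FPKM values (fragments per kilobase and library size). In untreated cultures the order of mean FPKM level was Hadhb (24.9 ± 3.73, SD, n = 3), Hadha (21.7 ± 3.15), Cpt2 (19.7 ± 1.04), Acadvl (19.4 ± 0.629), Cpt1a (17.9 ± 1.95), Acadl (14.7 ± 2.42), Fabp5 (6.44 ± 2.04), Fabp3 (5.13 ± 3.69), Acadm (2.07 ± 0.269) and Ppara (0.171 ± 0.162). Neighbours in that order overlapped within 1 SD except Acadl with Fabp5 and Acadm with Ppara. In BPA cultures Hadha (26.5 ± 4.31), Cpt2 (25.2 ± 3.55), Cpt1a (24.0 ± 2.40) and Fabp3 (20.4 ± 5.16) came first. Acadl (16.5 ± 2.46), Hadhb (14.4 ± 3.17), Acadvl (12.5 ± 1.64), Fabp5 (4.12 ± 0.756), Acadm (2.70 ± 1.59) and Ppara (0.219 ± 0.0983) followed. There neighbours overlapped within 1 SD except Acadvl with Fabp5 and Acadm with Ppara. By mean FPKM Hadhb thus went from rank 1 to 6, Acadvl from 4 to 7 and Fabp3 from 8 to 4.

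The order depends on the gene length behind the FPKM values. With the merged exon length of GENCODE vM21, Cpt2 was first in both groups, followed by Acadvl and Hadhb in untreated cultures and by Hadha in BPA cultures. Hadhb then had rank 3 in untreated and 5 in BPA cultures, and Acadvl ranks 2 and 3. Fabp5 and Fabp3 (ranks 7 and 8 in untreated cultures, 8 and 4 under BPA), Acadm and Ppara kept their ranks under both lengths.

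**Figure D4:**
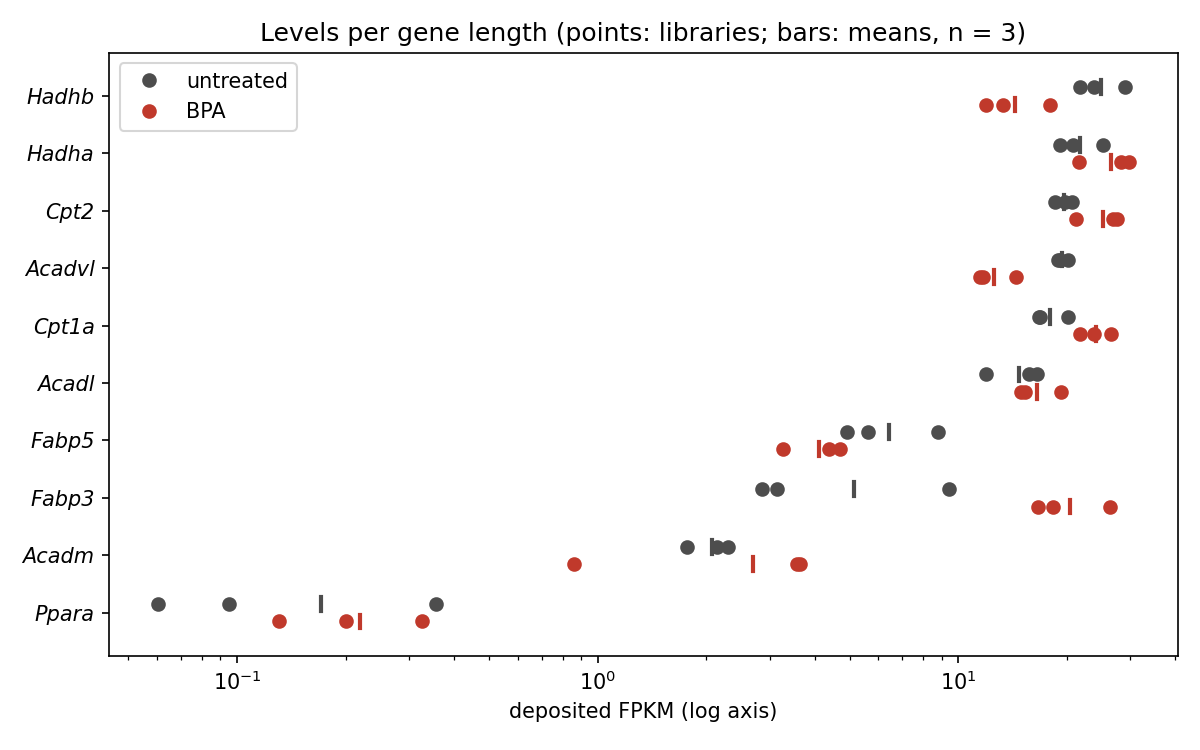
Deposited FPKM (log axis) of the 10 genes in untreated (grey) and BPA (red) libraries, with points for libraries and vertical bars for means (n = 3). Mean levels run from 0.171 for Ppara to 24.9 for Hadhb in untreated cultures, and the red points of Fabp3 lie in the range of the oxidation enzymes.

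The other genes of the pathway were taken from 7 lists of 108 genes in all, of which 83 had enough counts to be tested. By edgeR 1 was higher and 9 were lower under BPA, against 4.37% and 6.28% of all tested genes. Their median log2 fold change was 0.02, and 30 of the 83 (36.1%) had groups without overlap, against 31.3% of all tested genes. At an unadjusted p under 0.05 edgeR gave 11 higher and 13 lower, against 12.8% and 12.5% of all tested genes. At an adjusted p under 0.05 DESeq2 gave 4 and 9, against 6.92% and 8.65% of all its genes. With limma-voom it was 2 and 9, against 3.81% and 6.93%. The counts of each list below, with 4 to 21 tested genes, are to be read beside these shares. No list was tested against them.

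Among 13 tested genes of acyl-CoA formation, the carnitine shuttle and their relatives, whose median log2 fold change was 0.28, 1 rose and 1 fell. Cpt1c, listed as the brain-type relative of Cpt1a, was the gene that rose, and whether it serves the shuttle was not tested. It measured 55.3, 46.2 and 38.4 CPM in untreated and 88.5, 113 and 67.7 CPM in BPA replicates 1 to 3 (log2 fold change 0.95, SE 0.23, edgeR adjusted p = 0.0243). Acsbg1, a synthetase that activates long-chain and very-long-chain fatty acids, measured 189, 191 and 180 CPM in untreated and 74.9, 101 and 71.4 CPM in BPA replicates 1 to 3 and fell by 1.18 (SE 0.18, edgeR adjusted p = 0.0016). The groups did not overlap for either gene. Acsbg1 passed with each library left out in turn. Cpt1c did not pass without untreated replicate 1, 2 or 3 or BPA replicate 1 (highest edgeR adjusted p = 0.0999). The muscle form Cpt1b averaged 0.0767 CPM over all libraries and was not tested.

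Of 21 other tested genes of the mitochondrial spiral, its auxiliary enzymes and electron transfer, 0 rose and 4 fell by edgeR. Over all tested genes the shares were 4.37% and 6.28%. The median log2 fold change of the 21 was -0.08. The unadjusted p was under 0.05 for 3 higher and 5 lower, and DESeq2 and limma-voom each called 0 and 4. The largest fall was that of Acaa2, the mitochondrial thiolase that completes the spiral for shorter chains. It measured 115, 131 and 130 CPM in untreated and 37.8, 44.5 and 38.4 CPM in BPA replicates 1 to 3, with the groups far apart (log2 fold change -1.64, SE 0.18, edgeR adjusted p = 2.1e-04), and passed with each library left out. Ech1, an auxiliary isomerase for unsaturated chains, fell by 0.77 (SE 0.14, edgeR adjusted p = 0.00575, and 0.0538 without untreated replicate 2), from 289 ± 22.6 to 169 ± 6.37 CPM (SD, n = 3 each).

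Acads, the short-chain acyl-CoA dehydrogenase, fell from 156 ± 18.2 to 84.7 ± 21.7 CPM (a log2 fold change of -0.88 with SE 0.21, edgeR adjusted p = 0.0199). Leaving out untreated replicate 1 or 2, or BPA replicate 1 or 3, ended the call (highest edgeR adjusted p = 0.114). Hsd17b10, a multifunctional dehydrogenase of short and branched chains, fell from 144 ± 7.43 to 98.3 ± 1.56 CPM (a log2 fold change of -0.55 with SE 0.16, edgeR adjusted p = 0.0409). It passed in 7 of 9 other settings, and with 1 library left out only without BPA replicate 2 (edgeR adjusted p otherwise up to 0.167).

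**Figure D5:**
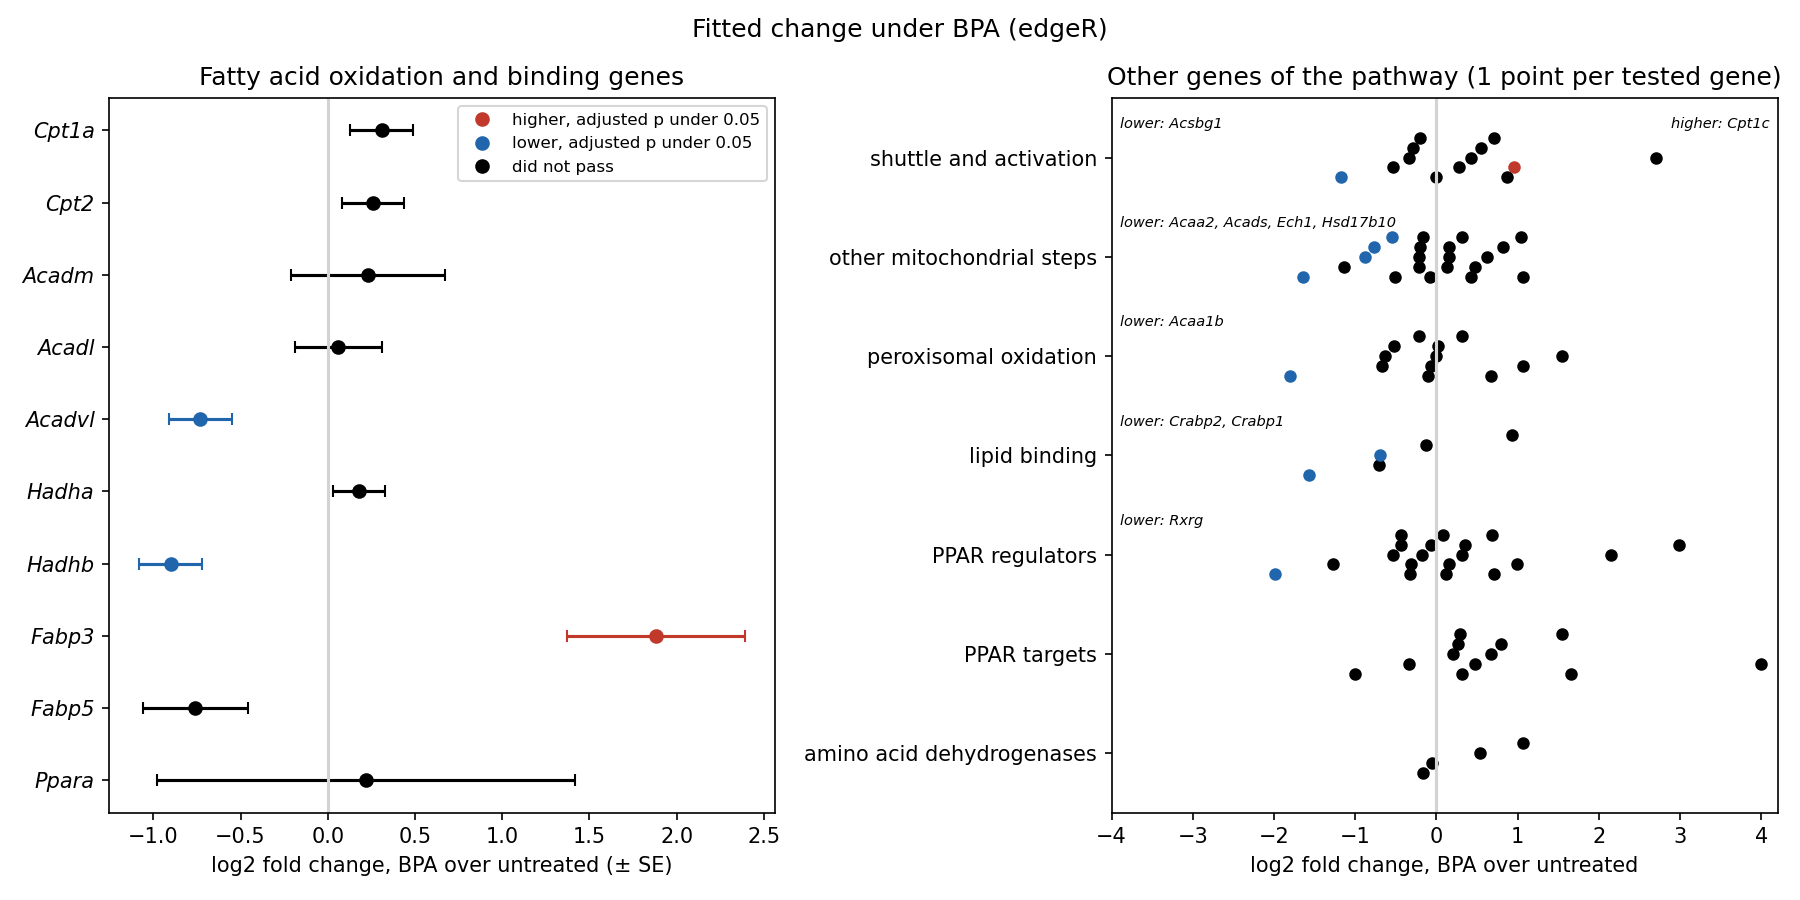
Left, log2 fold change (BPA over untreated, ± SE) of the 10 genes, with those past an edgeR adjusted p of 0.05 in red (higher: Fabp3) or blue (lower: Acadvl, Hadhb). Right, the log2 fold change of every tested gene in the 7 lists of other pathway genes, 1 point per gene and list, with the names of genes past the threshold.

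Peroxisomes shorten very long chains with enzymes of their own. Of 13 tested peroxisomal genes 0 rose and 1 fell by edgeR, DESeq2 and limma-voom, around a median log2 fold change of -0.07, and the unadjusted edgeR p was under 0.05 for 1 in each direction. Acaa1b, a peroxisomal thiolase, measured 19.1, 23.3 and 19.0 CPM in untreated and 8.45, 5.15 and 4.12 CPM in BPA replicates 1 to 3 and fell by 1.80 (SE 0.38, edgeR adjusted p = 0.0109). It did not pass without untreated replicate 1 or 2 (highest edgeR adjusted p = 0.0551). Its near relative Acaa1a, named after its values were seen, measured 35.9 ± 7.37 and 25.0 ± 7.33 CPM (SD, n = 3 each; log2 fold change -0.52, SE 0.29, edgeR adjusted p = 0.285), and reads of 2 such similar genes can be hard to assign.

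Of 16 other lipid-binding genes only 5 had enough counts to be tested, and Fabp1, Fabp2, Fabp6, Fabp7, Fabp12, Pmp2, Rbp2 and the fatty acid transporter gene Cd36 had 0 counts in all 6 libraries. Of the 5, 0 rose and 2 fell by edgeR, DESeq2 and limma-voom, around a median log2 fold change of -0.69, and the unadjusted edgeR p was under 0.05 for 1 higher and 2 lower. The retinoic acid binding protein genes were the 2 that fell: Crabp2 from 38.0 ± 7.52 to 12.8 ± 1.47 CPM (a log2 fold change of -1.57 with SE 0.28, edgeR adjusted p = 0.00442) and Crabp1 from 216 ± 35.4 to 134 ± 5.75 CPM (-0.69, SE 0.16, edgeR adjusted p = 0.0201). Crabp2 passed with each library left out. The call of Crabp1 was lost when untreated replicate 1 or 2 or BPA replicate 1 or 3 was left out (highest edgeR adjusted p = 0.133), and with libraries adjusted for GC content and length (edgeR adjusted p = 0.589).

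On a list of PPAR receptors, partners, coregulators and other genes of fatty acid metabolism, 19 genes were tested. Acaca, Acacb, Prkaa1 and Prkaa2 were among these other genes. By edgeR 0 of the 19 rose and 1 fell, around a median log2 fold change of 0.08. The unadjusted p was under 0.05 for 2 higher and 3 lower, DESeq2 called 2 and 1, and limma-voom 0 and 1. Rxrg, the gamma form of the retinoid X receptor, measured 20.7, 16.9 and 35.7 CPM in untreated and 6.42, 6.64 and 5.38 CPM in BPA replicates 1 to 3. The groups were well apart, and Rxrg fell by 1.99 (SE 0.37, edgeR adjusted p = 0.00579) and passed with each library left out. The more abundant receptors of the same family, named after their values were seen, did not pass: Rxra averaged 118 CPM and Rxrb 173 CPM over all libraries, with log2 fold changes of -0.44 and 0.16 (edgeR adjusted p = 0.166 and 0.653). Pparg averaged 0.321 CPM and the coactivator Ppargc1a had 0 counts, and neither was tested.

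Of 12 tested classical PPAR target genes outside the 10, 0 rose and 0 fell by edgeR, around a median log2 fold change of 0.40. The unadjusted p was under 0.05 for 3 higher and 1 lower, and DESeq2 and limma-voom each called 1 higher (Fgf21) and 0 lower. Of the 2 most abundant, Plin2, which coats lipid droplets, measured 178, 207 and 156 CPM in untreated and 216, 234 and 211 CPM in BPA replicates 1 to 3 (log2 fold change 0.29, SE 0.16, edgeR adjusted p = 0.278). Pnpla2, the adipose triglyceride lipase, measured 100.3, 121 and 91.8 CPM against 122, 195 and 118 CPM (0.47, SE 0.22, edgeR adjusted p = 0.195) and passed after the GC and length correction (0.0151). Fgf21, a secreted metabolic hormone named after its values were seen, had 0, 0 and 17 counts in untreated and 91, 148 and 157 counts in BPA replicates 1 to 3. Its log2 fold change of 4.00 (SE 1.25) missed the threshold in edgeR (adjusted p = 0.0608) and passed in DESeq2 (adjusted p = 0.00308), limma-voom (0.0462) and edgeR without the low-count filter (0.00181), with a replicate block (0.03) or with libraries adjusted for GC content and length (0.0339). Without untreated replicate 3, the only untreated library with counts, the fitted value was 9.91 (edgeR adjusted p = 0.00554), which depends on the prior count and is not a fold. Of the target genes Cyp4a10 and Cyp4a14 had 0 counts in every library.

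Of 4 acyl-CoA dehydrogenases of amino acid breakdown, relatives of Acadm, Acadl and Acadvl, 0 rose and 0 fell by edgeR, DESeq2 or limma-voom, also at an unadjusted p under 0.05. The 2 most abundant were Ivd, which acts on leucine breakdown, at 23.8 ± 4.92 and 21.1 ± 5.75 CPM (SD, n = 3 each; log2 fold change -0.17, edgeR adjusted p = 0.777), and Acad8, which acts on valine breakdown, at 9.71 ± 2.32 and 9.39 ± 1.97 CPM (-0.05, edgeR adjusted p = 0.958).

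Markers of other cell types were also measured, each list summed first in untreated and then in BPA cultures. The 5 muscle markers, listed because Fabp3 is abundant in heart and muscle, summed to 16.1 to 20.9 CPM in untreated and 7.46 to 13.3 CPM in BPA cultures, mostly Myh6, with Ckm at 0. The 5 adipocyte markers summed to 2.59 to 5.08 CPM and 0.693 to 7.48 CPM, with Lep at 0. The 10 fibroblast markers summed to 102 to 143 CPM and 66.4 to 102 CPM, led by Col1a1. The 5 macrophage markers summed to 49.9 to 55.0 CPM and 27.6 to 43.8 CPM, nearly all of it Cd68, with Ptprc at 1 count in all. The ranges of the 2 groups did not overlap for the muscle and macrophage sums. The part of the Sertoli, muscle, fibroblast and macrophage markers in the results for Acadvl, Hadhb and Fabp3 was not tested.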

How the data were processed

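The deposited table holds whole-number gene counts and FPKM values (fragments per kilobase and library size) made by the authors for each of 6 libraries. Per the submitters' processing notes TopHat2 2.0.9, HTSeq and mm10 were used. The HTSeq version is not given in the sources used here, nor is the annotation release or the setting for strand and multiple matches. Per the labels' protocols libraries were made with the TruSeq RNA kit v2, which does not mark strand. From the deposited counts, genes were kept by edgeR's filterByExpr, libraries were scaled by TMM, and BPA was compared with untreated by the quasi-likelihood test of edgeR 4.0.16 (R 4.3.3, all 6 libraries, no block). P-values were adjusted over all 13287 tested genes by Benjamini-Hochberg, with a threshold of 0.05. The deposited FPKM values were used only for levels between genes. Depth was 13453280 to 22286517 counts, and the common biological coefficient of variation was 0.44, which limits what can be detected in weakly expressed genes. The labels name no batch.

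Ratios of 2 genes in a library were compared by exact permutation (scipy 1.17.1). Exon overlaps came from GENCODE vM21, in which 98.6% of gene identifiers were found, and copies from blastn 2.17.0 (at least 90% identity over at least 100 bases). Promoters are RefSeq's (GRCm38.p6). The named genes are the 10, genes whose exons overlap theirs or whose start lies within 1 kb, and from each list up to 4 genes past the threshold, or the 2 most abundant where none passed. The 10 genes, the lists and the alternatives were chosen with earlier results of these data known. Alternatives were DESeq2 1.42.0, limma-voom (limma 3.58.1), 3 other scalings, 2 other filters, an FDR of 0.01, a replicate block, a GC and length correction (lowess, span 0.3) and leaving out each library; ranks with GENCODE vM21 exon lengths were added after seeing the data. The fits were also run on simulated counts of independent libraries with an assumed spread, and the outcome is not given here. Those counts held no replicate, GC or length effect and no deviating library, so they cannot speak for these settings. Figures were drawn with matplotlib 3.10.9.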

Additional observations from a re-analysis of the deposited data

How the results depend on the processing

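Under the 9 other fits, Fabp3, Acadvl and Hadhb kept their direction and passed the threshold of 0.05. At an FDR of 0.01 there were 155 higher and 322 lower genes, and of the 10 genes 0 were higher and 1 (Hadhb) lower, and of the other pathway genes 0 higher and 5 lower. All genes higher numbered 580 by edgeR, 975 by DESeq2, 927 with no low-count filter and 903 after the GC and length correction. Pathway genes higher numbered 1, and 2 with library size scaling (Cpt1c and Med1), 2 with limma-voom, 3 with no low-count filter, 4 with DESeq2 and 3 with the GC and length correction.

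Leaving out each library gave 162 to 1207 genes higher and 282 to 1600 lower. The highest of both were without BPA replicate 2, and the lowest without untreated replicate 1. Of the 10 genes 0 to 1 were then higher and 0 to 2 lower, and of the other pathway genes 0 to 5 higher and 4 to 14 lower, the highest again without BPA replicate 2.

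Genes near no change turned sign: Acadm with limma-voom (-0.0047), with the GC and length correction (-0.06) and in the fits with a library left out (-0.04 to 0.63). Acadl did so with that correction (-0.05) and with a library left out (-0.06 to 0.17), and Ppara with a library left out (-0.18 to 1.38). The log2 ratio of Cpt1a to Cpt2 changed by 0.07 with all libraries and by -0.12 to 0.19 with a library left out, the lowest without BPA replicate 3. These genes did not pass in any setting, and the cause was not tested.

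Deviations from the group means correlated weakly between same-numbered libraries (r = -0.021, 0.061 and 0.067). Between differently numbered libraries r was -0.079 to 0.028. With 3 libraries per group these values cannot decide whether the numbers pair the samples. A replicate block gave 721 genes higher and 985 lower, 1 and 2 of the 10, and 2 and 9 of the other pathway genes. Counts of 7 to 29 leave Ppara without a usable precision.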

Other observations

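BPA replicate 2 was under 0.5 times both other BPA libraries for 6 of the 83 other pathway genes (Acad11, Acadsb, Acot2, Acsl3, Crot and Decr1), or 7.2%, against 11.9% of all tested genes. Without that library Decr1 (log2 fold change 1.33), Etfdh (1.35), Acsl1 (0.89) and Acbd3 (1.16) passed as higher (edgeR adjusted p = 0.021, 0.0292, 0.0389 and 0.0205), and Mcat, Pprc1, Rxra, Slc27a4 and Esrra as lower. In the filtered edgeR fit of all 6 libraries these 9 genes did not pass, and the log2 fold changes of Decr1 and Etfdh were 1.04 and 1.07 (edgeR adjusted p = 0.124 and 0.137). With all 6 libraries and no low-count filter Decr1 passed (log2 fold change 1.05, edgeR adjusted p = 0.0389).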
